A study of Mus musculus with 28 samples.

Results

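Opcml, Lsamp, Ntm and Negr1 are the 4 IgLON genes described here, taken by name from the exonic table (23453 genes) and the intronic table (20422 genes) of a mouse brain single-cell RNA-seq set, and all 4 are listed in both. The set holds 28 single cells of the mouse cortex. The sample labels name 8 astrocytes and 12 neurons from primary culture of C57/BL6 mice, taken up with a pipette, and 8 interneurons from acute prefrontal slices of C57/BL6/N mice, collected with a patch-clamp pipette. No treatment is labelled. The protocol text under the heading of the cultured cells describes a perfused and fixed brain of a male mouse aged 3 months, cut into sections and stained for MAP2, and gives no age for the slices. No label names the animal or culture of a cell.

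IgLON proteins are small cell-surface molecules with immunoglobulin domains, held in the outer leaflet of the membrane by a lipid anchor. They bind one another in the same membrane or across neighbouring cells, and are known in the brain for roles in neurite outgrowth and the formation of synapses. Opcml is known as opioid-binding cell adhesion molecule, Lsamp as the limbic system-associated membrane protein, Ntm as neurotrimin and Negr1 as neuronal growth regulator 1 (also kilon), and Iglon5, the remaining member of the family, is better known as an antigen in an autoimmune sleep disorder. Their genes are long, with small exons separated by very large introns, so a read in an intron and a read in an exon carry different information: the first comes from unspliced or nuclear RNA (or from DNA), the second mainly from spliced RNA.

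All 4 genes lie in the extreme tail of gene length. In the GENCODE M21 annotation of GRCm38, Lsamp covers 2197.3 kb (chr16:39984361-42181679, plus strand), Opcml 1134.6 kb (chr9:27790775-28925410, plus strand), Ntm 968.4 kb (chr9:28994750-29963141, minus strand) and Negr1 754.7 kb (chr3:156561794-157316445, plus strand), each above the 99.5th percentile of span. Exons make up 17.2 kb of Lsamp, 14.5 kb of Opcml, 8.08 kb of Ntm and 10.5 kb of Negr1, and the rest is intron. Opcml and Ntm are neighbours on chromosome 9 and point towards each other, with 69.3 kb between their ends. The nearest other protein-coding genes are Spata19 beside Opcml, Snx19 beside Ntm, Igsf11 and Gap43 beside Lsamp, and Lrriq3 and Zranb2 beside Negr1. Annotated genes of noncoding types overlap the members, 3 in Opcml, 9 in Lsamp, 2 in Ntm and 11 in Negr1, of which 1, 4, 1 and 3 lie on the opposite strand. The longest of them is Gm48091, antisense to Opcml at chr9:28794296-28954347, whose span takes in the last exons of Opcml. None of them is listed in the tables, and the strand setting of the counting is not given in the sources used here, so reads of such overlapping or antisense RNAs could have been counted to the member.

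**Figure D1:**
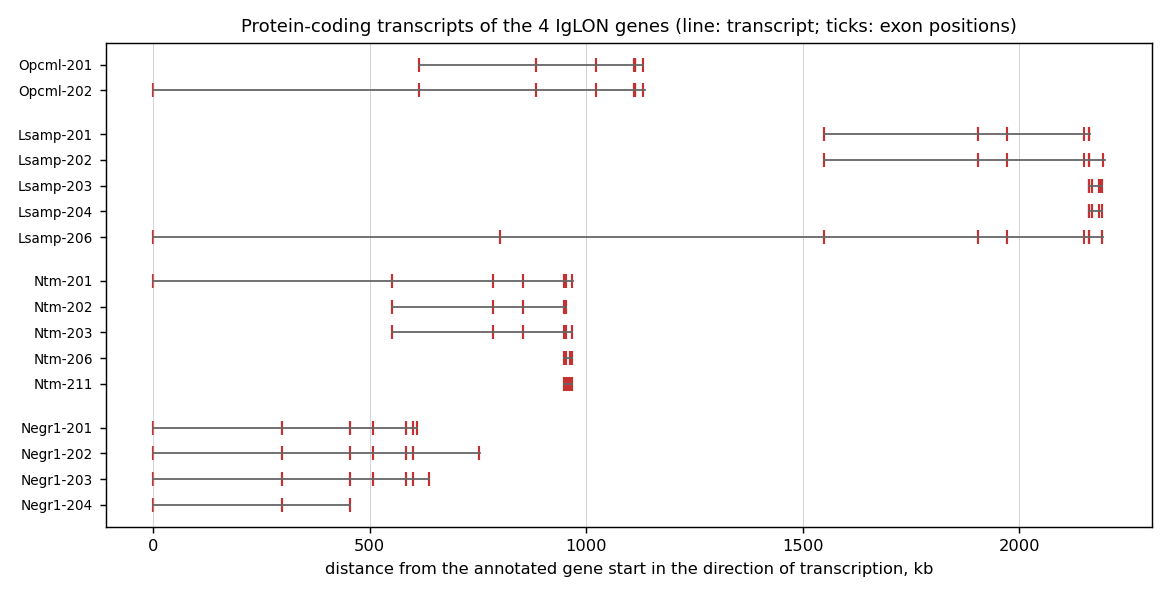
Protein-coding transcripts of the 4 genes in GENCODE M21, drawn to scale as distance from the annotated gene start (kb, horizontal axis) with 1 line per transcript and a tick at the middle of each exon. Opcml, Lsamp and Ntm each have a distal start and a second one 613.0, 1548.5 and 550.9 kb further on, whereas the 4 transcripts of Negr1 start within 0.356 kb of each other. Short transcripts of Lsamp (Lsamp-203 and Lsamp-204) and Ntm (Ntm-206 and Ntm-211) start further on still, at about 2159.6 and 948.9 kb.

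The stretch of sequence that bears on the counts is shared by Opcml and Ntm. Transcripts Opcml-201 and Ntm-203, which begin at the downstream starts, hold an identical run of 124 bases in exon 1, of which 29 precede the start codon and 95 are coding. A read that lies within it cannot be told apart between the genes by its letters. The coding part is at chr9:28404246-28404340 on the plus strand for Opcml and at chr9:29411628-29411722 on the minus strand for Ntm (GRCm38), and is given with the start codon in capitals:
Opcml and Ntm, exon 1: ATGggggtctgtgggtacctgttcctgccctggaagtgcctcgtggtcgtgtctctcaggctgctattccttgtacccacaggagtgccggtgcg
The other pairs of members shared at most 35 bases in a row, and no run of 50. How the counting treated reads with more than 1 place in the genome is not given in the sources used here.

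The bases upstream of the start are given for the members that led the 4 in exonic level per kb of exon. They come from the RefSeq promoter table (GRCm38.p6, 250 bases before the start), with each CG dinucleotide in capitals. Negr1 (chr3:156561544-156561793, plus strand) held 19 CG, and 19.7% of the 32851 promoters in the table held as many:
Negr1: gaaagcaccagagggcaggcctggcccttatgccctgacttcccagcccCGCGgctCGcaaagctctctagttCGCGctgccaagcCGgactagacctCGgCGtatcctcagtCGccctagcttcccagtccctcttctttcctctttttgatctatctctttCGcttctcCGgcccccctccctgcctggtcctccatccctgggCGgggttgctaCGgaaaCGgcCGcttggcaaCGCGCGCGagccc
Ntm had 2 entries at its downstream starts, and the one with more CG (chr9:29412686-29412935, minus strand) held 14:
Ntm: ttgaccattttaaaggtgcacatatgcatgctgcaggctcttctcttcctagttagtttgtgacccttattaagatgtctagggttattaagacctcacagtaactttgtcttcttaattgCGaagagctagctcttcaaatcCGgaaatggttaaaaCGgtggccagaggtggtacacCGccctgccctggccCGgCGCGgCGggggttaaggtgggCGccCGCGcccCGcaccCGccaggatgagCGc
Lsamp held 12 at its distal start and 3 at its downstream start, and Opcml held 8, against a median of 6 over all promoters. Both sequences shown also held a GC box (GGGCGG, searched on both strands), as did 32.7% of promoters. The letters TATAAA were found in none of the members' windows and in 12.4% of promoters.

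Cells are named in both tables by codes, none of which was found in a sample label, and no cell was given a cell type here. Values are set out over the 3 runs of the codes: BRP564 and BRP566 to BRP572 (8 cells, called high-numbered BRP cells), the BRP codes from BRP528 to BRP543 (12 cells, low-numbered BRP cells) and the codes beginning with F (8 cells). The runs are as large as the 3 labelled groups (8 astrocytes, 12 neurons, 8 interneurons), but the labels do not tie them together, and all 28 cells count as 1 sample. No test between runs was therefore made: differences are given as ratios of medians and by whether the ranges of cells overlap, beside the share of all genes that do the same. Levels are counts per 1000000 (CPM) of the cell's exonic or intronic total.

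Exonic totals ranged from 12969692 to 19798892 in the high-numbered BRP cells, from 17483754 to 26770944 in the low-numbered BRP cells and from 838343 to 14831505 in the F cells. Introns held 5.67 to 13.0% of all counts in the high-numbered BRP cells, 8.91 to 38.8% in the low-numbered and, in the F cells, 36.3 to 63.0% with the exception of F1 at 5.31%, so values of the F cells are also given without F1. Genes with an exonic count numbered 9869 to 12815 in the BRP cells and 2338 to 7218 in the F cells. Marker lists moved with the runs: the summed level of 6 neuronal genes (Snap25, Syt1, Tubb3, Map2, Stmn2, Rbfox3) was 299.5 to 800.8 CPM in the high-numbered BRP cells, 4736.9 to 8469 in the low-numbered and 1608 to 16746 in the F cells, and that of 8 astrocyte genes (Gfap, Slc1a2, Slc1a3, Aqp4, Aldoc, S100b, Gja1, Aldh1l1) was 1522 to 6174, 191.3 to 2463 and 0 to 4352. Slc1a2, a glutamate transporter, went the other way from the rest of that list, with a median of 192 CPM in the high-numbered and 804 CPM in the low-numbered BRP cells, and it made up 4349.6 CPM of the highest F cell, while S100b and Aldh1l1 were at 0 in every F cell. The 8 GABAergic genes summed to 565 to 11886 CPM in the F cells, 0.538 to 3109.8 in the low-numbered BRP cells and 1.62 to 190.0 in the high-numbered. Lhx6 and Vip were at 0 in every high-numbered BRP cell. Gad1 and Slc32a1 had the highest medians of the 8 in the F cells (2754 and 530.5 CPM). Gad2 had a lower median in the F cells than in the low-numbered BRP cells (10.2 and 36.3 CPM). Pvalb, Sst and Vip had medians of 0 in the F cells, and Pvalb had 4.015 CPM in the high-numbered. Of the neuronal genes, Tubb3 and Stmn2 had lower medians in the F cells (4.45 and 76.8 CPM) than in the high-numbered (8.40 and 193.8 CPM). The 5 glutamatergic genes summed to 0.598 to 1104 CPM in the low-numbered BRP cells, 0 to 144 in the high-numbered and 0 to 5.26 in the F cells. The 6 oligodendrocyte genes summed to 563 to 1311 CPM in the high-numbered BRP cells with Mog at 0, and reached 1261 and 3387 in single cells of the other runs. The 5 microglial genes reached 2093 CPM in 1 F cell, all of it from Csf1r. In the F cells C1qb, Aif1 and Cx3cr1 reached at most 0.542, 1.85 and 4.73 CPM, and Tmem119 was at 0. The 3 endothelial genes reached at most 19.8 CPM. The part of these cell type markers in the levels of the IgLON genes was not tested.

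Negr1 was the most abundant IgLON gene in the exons of both BRP runs by its median, though not in the F cells, and its exonic level set the low-numbered BRP cells apart from all the others. It was at 252 to 1129 CPM in the low-numbered BRP cells (median 797), at 2.62 to 35.7 CPM in the high-numbered BRP cells (median 23.8) and at 0 to 3.33 CPM in the F cells (median 0.473). The lowest of the 12 low-numbered BRP cells was thus above the highest of all the others. Such counts of members are read against the whole table. An exonic level in every low-numbered BRP cell above every high-numbered BRP cell held for 2 of 4 members (Opcml and Negr1) and for 2.52% of 16403 genes, and above every F cell for 1 of 4 members (Negr1) and for 8.62% of genes. Every high-numbered BRP cell above every F cell held for none of the members and for 19.4% of genes: BRP569, at 2.62 CPM, was below F12, at 3.33 CPM. The median in the low-numbered BRP cells was 33.5 times that in the high-numbered and 1686.5 times that in the F cells, where 4 of 8 cells had no exonic count, which allows levels of up to 0.202 to 0.683 CPM at 3 counts. The ratio to the F cells therefore rests on 26 exonic counts in all 8 of them, and it was 843 without F1 and could not be had without F16, where the median of the F cells was 0. TMM scaling, which adjusts for the make-up of each library, left the order of the runs and gave 41.6 times for the ratio between the BRP runs.

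The introns of Negr1 told the runs apart much less. Intronic levels were 127.5 to 1406 CPM in the high-numbered BRP cells (median 762), 88.6 to 4709.9 CPM in the low-numbered (median 710.5) and 3.89 to 5128 CPM in the F cells (median 283). The ranges of all 3 runs overlapped, and the ratio of medians between the BRP runs was 0.933 where it was 33.5 in exons. The intronic ratio is one of CPM, and its direction depends on the scaling. TMM factors of the intronic totals, by which levels would be divided, were 1.48 to 2.58 in the high-numbered BRP cells. In the low-numbered they were 0.710 to 2.15, mostly smaller, so TMM scaling would raise the ratio. Within the low-numbered BRP cells the highest exonic level was 4.48 times the lowest and the highest intronic level 53.2 times the lowest. The intronic spread was the wider one for 3 of 4 members (not for Lsamp) and for 76.3% of the 1837 genes with both counts in all 12 cells, whose median spreads were 21.9 times in exons and 223 times in introns.

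Opcml had the largest ratio between the BRP runs. Its exonic level was 34.1 to 277 CPM in the low-numbered BRP cells (median 87.7) and 0 to 8.36 CPM in the high-numbered (median 0.154), with 2 of 8 of the latter at 0, so that the ranges did not overlap and the medians differed by 571 times. The size of this ratio rests on very few counts, since the median of the high-numbered BRP cells lay between BRP571, with 3 exonic counts, and BRP569, with 2. BRP572, BRP566 and BRP567 had the highest levels (8.36, 4.14 and 2.84 CPM) and 154, 65 and 46 of the 271 counts of the run. The other 5 cells lay at or below 0.154 CPM. In the F cells the gene was at 0 to 163 CPM with a median of 1.39. Cell F1, at 163 CPM, held 2413 of the 2484 exonic counts of the F cells, and the other 7 lay at or below 8.85 CPM. Without F1, every low-numbered BRP cell was above every F cell for 2 of 4 members (Opcml and Negr1) and for 11.8% of genes. The median in the low-numbered BRP cells was 62.9 times that in the F cells, and 15.6 times with TMM scaling. This ratio also rests on few counts, since the median of the F cells lay between F16, with 1 exonic count, and F11, with 7. In introns Opcml was at 135 to 1592 CPM in the high-numbered BRP cells (median 487), at 34.0 to 11015 CPM in the low-numbered (median 3010.3) and at 4.23 to 4780.1 CPM in the F cells (median 514), with overlap throughout.

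In Ntm the F cells ranged more widely than the other runs in exons. Its exonic level was 23.5 to 229.8 CPM in the low-numbered BRP cells (median 93.6), 0 to 47.4 CPM in the high-numbered (median 3.17) and 0 to 321 CPM in the F cells (median 2.80). The ranges of all runs overlapped, since BRP564 reached 47.4 CPM and F2, at 321 CPM, had the highest level of all 28 cells. Exonic counts were found in 4 F cells: F2 at 321 CPM, F7 at 101 CPM, F6 at 10.8 CPM and F1 at 5.60 CPM. In introns these 4 cells were at 34.0, 104.2, 1.90 and 21.6 CPM. The F cells without an exonic count (up to 0.683 to 3.58 CPM at 3 counts), F11, F12, F24 and F16, were at 1427, 1201, 1221 and 11.3 CPM in introns. The cells with most exonic Ntm and those with most intronic Ntm were thus different F cells, a pattern given as a description of 8 cells. In the low-numbered BRP cells intronic Ntm was at 109 to 1808 CPM (median 961) and in the high-numbered at 13.6 to 1032 CPM (median 249.5). The ratio of exonic medians was 29.5 between the BRP runs and 33.4 between low-numbered BRP cells and F cells, and the latter was 17.9 with TMM scaling and 16.7 without F16, the cell with fewest exonic counts. Without F1 the median of the F cells was at 0.

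Lsamp had the lowest median exonic level of the 4 in the low-numbered BRP cells and the F cells, and in the high-numbered BRP cells only Opcml was lower. In exons it was at 0.0487 to 73.2 CPM in the low-numbered BRP cells (median 17.1), at 0 to 10.1 CPM in the high-numbered (median 0.66) and at 0 in 6 of 8 F cells, where 3 counts would have been 0.249 to 3.58 CPM. The ranges of the BRP runs overlapped. BRP542 and BRP529 were at 0.0487 and 0.179 CPM, below the median of the high-numbered cells. BRP534, BRP541 and BRP543 (6.65, 8.36 and 8.58 CPM) were also below the high-numbered BRP566 and BRP567 (8.85 and 10.1 CPM). The 2 F cells with exonic counts were F1, at 17.9 CPM with 266 of the 267 counts, and F24 with 1 count. In introns every cell had Lsamp: 807 to 2577 CPM in the high-numbered BRP cells (median 1051), 137 to 3916 CPM in the low-numbered (median 1056) and 45.7 to 16155 CPM in the F cells (median 1725). The intronic medians of the BRP runs had a ratio of 1.01, beside 25.8 in exons. The lowest F cell was F1 and the other 7 lay between 1255 and 16155 CPM.

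**Figure D2:**
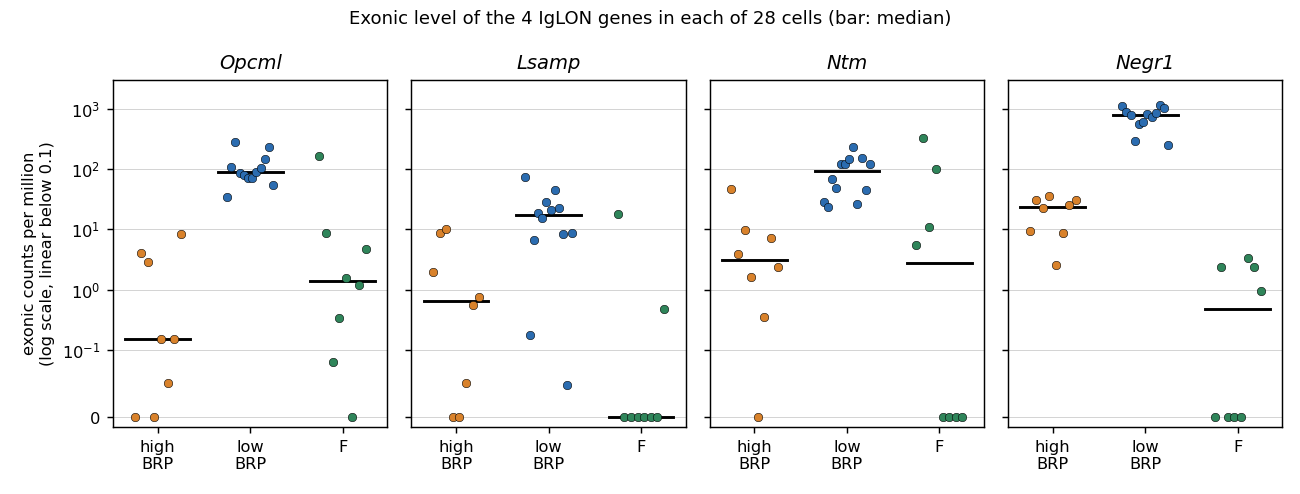
Exonic level (CPM, log scale that is linear below 0.1) of the 4 genes in each of the 28 cells, 1 point per cell, by run of column codes, with a bar at the median. The 12 low-numbered BRP cells lie above all high-numbered BRP cells for Opcml and Negr1 and overlap them for Lsamp and Ntm, and 4, 6 and 4 of the F cells lie at 0 for Negr1, Lsamp and Ntm.

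**Figure D3:**
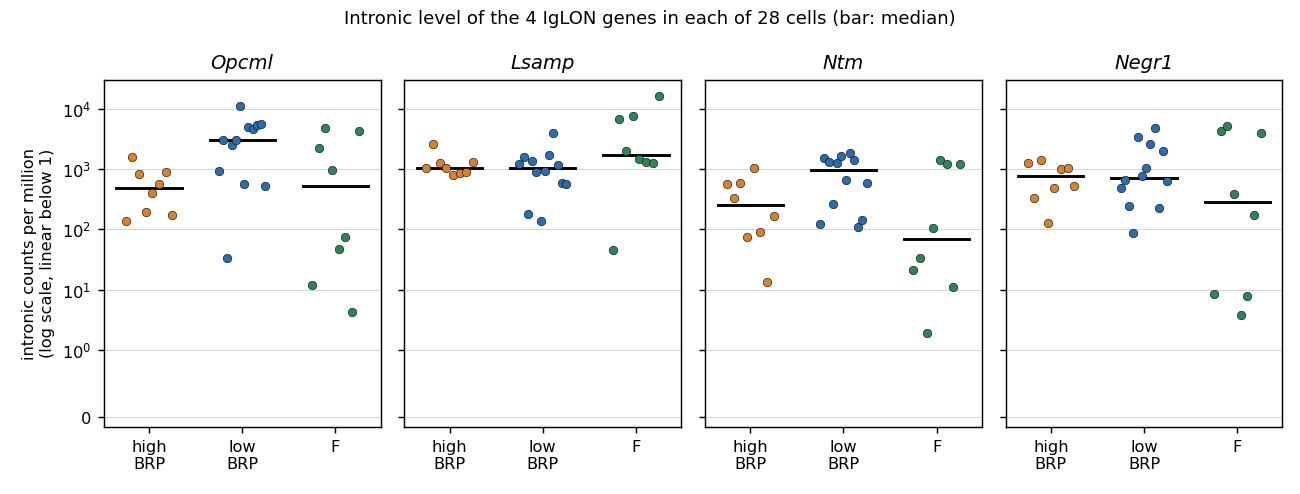
Intronic level (CPM of the intronic total, log scale that is linear below 1) of the same genes and cells, with a bar at the median. No cell lies at 0, and the ranges of the 3 runs overlap for every gene.

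Over the 4 genes, the median exonic level was higher in the low-numbered than in the high-numbered BRP cells for 4 of 4 members and for 31.2% of genes, and higher than in the F cells for 4 of 4 members and for 66.3% of genes. In introns the median was higher in the low-numbered than in the high-numbered BRP cells for 3 of 4 members (Lsamp by 1.01 times only) and for 31.1% of 15172 genes, and no member had every low-numbered BRP cell above every high-numbered one, as 0.0395% of genes did. These intronic medians were compared in CPM only, and the order of the BRP runs for Negr1 depends on the scaling, as given above.

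Most counts of Lsamp, Opcml and Ntm were intronic, and those of Negr1 were near evenly split. The intronic share of the counts summed over the 28 cells was 98.1% for Lsamp (exact 95% interval 98.0 to 98.1), 91.5% for Opcml (91.4 to 91.6), 72.7% for Ntm (72.4 to 72.9) and 52.7% for Negr1 (52.5 to 52.9), for which leaving out BRP540, F6 or F2 gave 47.7, 48.2 or 49.5%. These intervals treat each read as independent. The reads were amplified and carry no molecular identifiers, so the intervals may be too narrow even for counting error. They leave out the variation between cells, which was far larger: over cells with at least 10 counts of the gene, the share of Negr1 ran from 2.16 to 100% and that of Opcml from 0.413 to 100%. Among the 13110 genes with at least 1000 counts the median share was 10.02%, and among the 225 of them with a span of at least 500 kb it was 88.4%. Lsamp and Opcml were above that median of long genes and Ntm and Negr1 below it. Negr1 had a larger share than 15.1% of the long genes.

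The share differed between the runs. For Negr1 it was 79.8% in the high-numbered BRP cells (11231 intronic and 2851 exonic counts), 39.5% in the low-numbered (123155 and 188806) and 99.97% in the F cells (79150 and 26). For Opcml it was 96.9, 90.0 and 96.7%, the last being 99.9% without F1. Ntm was at 79.4, 69.96 and 83.3%. Lsamp was at 97.8, 94.0 and 99.9%, and the F cells other than F1 held 202211 intronic counts and 1 exonic count. Long genes as a whole also had larger shares in the F cells, with a median of 99.2% there, 87.4% in the high-numbered and 85.7% in the low-numbered BRP cells.

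An intronic count in every one of the 28 cells was found for 4 of 4 members and for 11.5% of genes, but for 90.6% of 213 genes with a span of at least 500 kb. An intronic count in every F cell together with no exonic count in at least 4 of them was found for 3 of 4 members (Lsamp, Ntm and Negr1) and for 11.2% of genes, and for 66.7% of the long genes. Both patterns were therefore about as common among long genes as among the members. The F cells also had the lower exonic totals and the higher intronic shares of all counts given above, and the part of depth or library in these patterns was not tested.

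**Figure D4:**
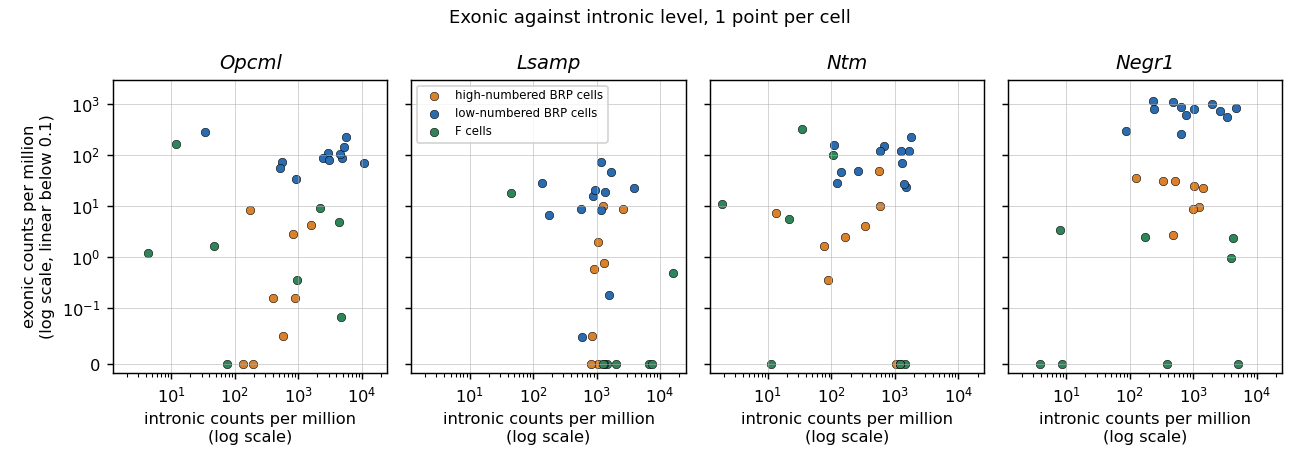
Exonic level against intronic level (both in CPM, log scales, the vertical one linear below 0.1), 1 point per cell and 1 panel per gene, coloured by run. For Negr1 the 12 low-numbered BRP cells lie above all other cells in exons while their intronic levels overlap with those of both other runs, and for Ntm 3 F cells lie at 0 in exons and at 1201 to 1427 in introns.

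**Figure D5:**
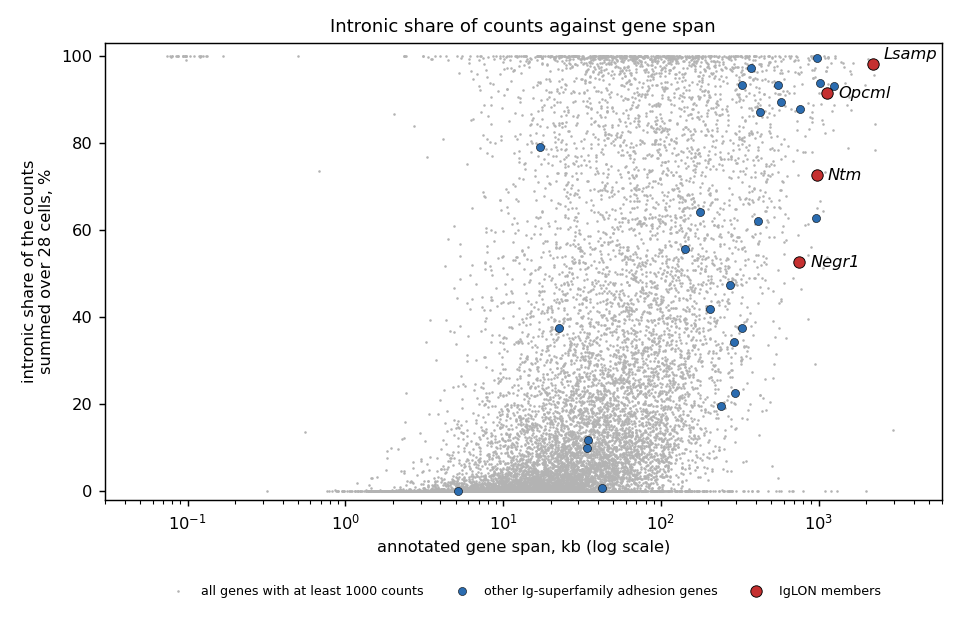
Intronic share of the counts summed over 28 cells (percent) against the annotated gene span (kb, log scale) for genes with at least 1000 counts in grey, the other immunoglobulin-superfamily adhesion genes in blue and the 4 members in red. The members lie at the right edge, with shares from 52.7% for Negr1 to 98.1% for Lsamp.

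Levels of the 4 genes were compared with each other per kb. Per kb of exon, the median exonic level in the low-numbered BRP cells was 75.9 CPM for Negr1 (23.99 to 107.5), 11.6 for Ntm (2.91 to 28.5), 6.04 for Opcml (2.35 to 19.1) and 0.991 for Lsamp (0.00283 to 4.25). Negr1 was the highest of the 4 in 12 of 12 of these cells although the ranges of neighbours in this order overlapped throughout, the highest Ntm cell (28.5) being above the lowest Negr1 cell (23.99). In the high-numbered BRP cells the order was Negr1 (2.27), Ntm (0.392), Lsamp (0.0384) and Opcml (0.0106), with Negr1 first in 7 of 8 cells. In the F cells it was Ntm (0.346), Opcml (0.096), Negr1 (0.045) and Lsamp (0), each with at least 1 cell at 0, and no member led in more than 3 of 8 cells. This order rested on F1: without it the medians were 0.08995 for Negr1, 0.0822 for Opcml and 0 for Ntm and Lsamp. Over all 28 cells Ntm (3.08) was just above Negr1 (2.92), an order that turned with means or summed counts. Per kb of intron the order was another one in each run. In the low-numbered BRP cells Opcml had the highest median intronic level (2.69 CPM per kb), followed by Ntm (1.00), Negr1 (0.955) and Lsamp (0.484). In the high-numbered BRP cells it was Negr1 (1.02), Lsamp (0.482), Opcml (0.435) and Ntm (0.260), and in the F cells Lsamp (0.791), Opcml (0.459), Negr1 (0.380) and Ntm (0.0720), with overlapping ranges in every run. By the median over the 28 cells Negr1 (0.870) was above Opcml (0.808), whereas by the mean Opcml was first. Averaged over the 28 cells, intronic levels per kb were 1.89 for Opcml, 1.77 for Negr1, 0.989 for Lsamp and 0.658 for Ntm, where the median of genes with an intronic count was 0.269 and that of 214 long genes 0.685. By this mean Lsamp was at the 78.0th percentile of genes, Opcml at the 88.9th, Negr1 at the 88.1st and Ntm at the 69.4th.

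The members followed one another only loosely from cell to cell. Spearman's rho between the exonic levels of 2 members over the 28 cells was 0.487 for Lsamp and Ntm to 0.612 for Opcml and Negr1, and these cells share the runs and their differences in depth. Within the 12 low-numbered BRP cells rho ran from -0.678 for Opcml and Lsamp to 0.385 for Opcml and Negr1. The exonic level of a gene went little with its own intronic level over 28 cells, with rho 0.361 for Opcml, 0.141 for Ntm, 0.103 for Negr1 and -0.212 for Lsamp. The intronic level of Negr1 in the low-numbered BRP cells followed the intronic share of the whole cell more closely (rho 0.818), which for the other members was 0.098 to 0.545. No p-value is given for any of these, because the cells are 1 sample.

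No member was among the genes most like another one. Among 10644 genes with an exonic count in at least 14 cells, the exonic level of Negr1 was followed most closely by Trim32 (rho 0.926), a ubiquitin ligase, then by Baiap2 (0.906), a synaptic scaffold that shapes membranes, Lancl2 (0.906), Yars (0.899), the tyrosyl-tRNA synthetase, and Tmem229b (0.888). Opcml was followed by Prmt8 (0.873), an arginine methyltransferase of neurons, Egr4 (0.853), an activity-induced transcription factor, Hprt (0.848), an enzyme of purine salvage, Hecw1 (0.839) and Jakmip1 (0.839). Ntm was most like Snph (0.849), syntaphilin, which anchors mitochondria in axons, Plk2 (0.846), an activity-induced kinase, Dock3 (0.842), Dpp6 (0.834), an auxiliary subunit of potassium channels, and Cadm2 (0.827), itself an adhesion gene of the immunoglobulin superfamily. Lsamp was most like Acsl1 (0.834), an enzyme that activates fatty acids, Ppm1b (0.809), Xk (0.809), Tnks2 (0.800) and Gdpd1 (0.800). The best place of a member in another member's order was 643rd, for Negr1 beside Opcml. All 20 of these genes had their highest median in the low-numbered BRP cells, from 5.37 CPM for Xk to 656 CPM for Cadm2. The members had theirs there too, so this follows largely from how the genes were picked and is no separate result. Lists of this kind depended on the measure of likeness, with 0 to 3 of the 5 genes kept per member by Pearson's r on a log scale and 0 with exonic and intronic counts added.

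Iglon5, the fifth member of the family and a gene of 17.2 kb only, was nearly undetected. It had 241 exonic counts in 13 cells, at most 5.48 CPM, 7 of them high-numbered BRP cells, and 908 intronic counts of which 865 came from BRP543.

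A list of 26 other adhesion genes of the immunoglobulin superfamily, Iglon5 among them, gave a frame for the members. Their intronic share had a median of 58.8% and passed 50% for 14 of them. Of these genes, 20 had a higher median exonic level in the low-numbered than in the high-numbered BRP cells, and 21 a higher one than in the F cells. Ranges that did not overlap were found for 3 of 26 between the BRP runs, 0 of 26 between low-numbered BRP and F cells and 2 of 26 without F1. An intronic count in every cell was found for 16 of the 25 with enough intronic counts, and the pattern of intronic counts with at least 4 empty F cells in exons for 6 of 25. Per kb of exon, the highest medians over 28 cells were those of Thy1 (94.5 CPM), a small anchored protein of neurons, Cadm1 (54.0) and Ncam1 (30.3), the neural cell adhesion molecule. Ntm at 3.08 and Negr1 at 2.92 were well below them by this median over all cells. In the low-numbered BRP cells, however, the median of Negr1 in CPM (797) was above those of Ncam1 (751.6), Cadm1 (696.5) and Thy1 (537). In the high-numbered BRP cells and the F cells Negr1 (23.8 and 0.473 CPM) was below all of these, and Ntm was below them in every run. Medians of 0 were found for Iglon5, Cntn4, Cntn5, Cntn6, Sdk1 and Sdk2, which share the lowest place. Of the genes at the lowest place, the contactins Cntn5 and Cntn4 had intronic shares of 93.2% (17530 exonic and 238255 intronic counts, span 1243.9 kb) and 93.8% (4005 and 60833, span 1021.7 kb), near that of Opcml, while Cntn6 at 97.2% and Sdk1 at 99.6% were nearer to Lsamp. Cadm2, with a span of 965.5 kb like that of Ntm, was at 62.7%, and its exonic medians were 67.7 CPM in the high-numbered BRP cells, 656 CPM in the low-numbered and 7.98 CPM in the F cells.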

How the data were processed

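The authors deposited 2 tables of whole-number counts per gene for 28 single cells, one for exons and one for introns, without normalization. The submitters' processing notes name bcl2fastq 2.17, STAR 2.4.0 and mm10. The counting tool, annotation and strand setting are not given in the sources used here. Library kits and sequencers differed between cultured cells and slice interneurons, per the labels.

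Counts were divided by the cell's total of the table and given per 1000000 (CPM). Medians and ranges were taken over runs of column codes. The planned comparison of labelled cell types was not made, because 0 codes matched a label. A count of 0 was given a limit of 3 counts. Shares of genes used those with at least 10 counts. Spans, exons and introns came from GENCODE M21, matched by symbol (98.6% of exonic and 98.8% of intronic rows). No pair of cells was a duplicate (lowest chi-square per degree of freedom 17.6 over 378 pairs). Named genes were the members, their neighbours, Iglon5, the 5 genes most alike by Spearman's rho, and the 3 highest and lowest of the adhesion list. The members and lists were chosen with earlier results of these data known. Calculations used Python 3.11.15 (pandas 2.3.3, numpy 2.4.6, scipy 1.17.1) and, for alternative scalings only, TMM factors of edgeR 4.0.16 and size factors of DESeq2 1.42.0 in R 4.3.3. Calculations were tested on simulated data of abundant genes, which does not cover ratios that rest on few counts.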

Additional observations from a re-analysis of the deposited data

Results flagged for a closer look

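Within the 2 runs of 8 cells, 18 sets of values were searched for a cell far from the other 7 by Dixon's criterion, and 7 were found. The criterion marks about 1 set in 20 by chance only where values are normally distributed. The levels here are skewed, some sets hold values at 0, and the sets share cells. That rate therefore does not apply, and the 7 are given as a description. The runs are not labelled groups, and the 12 low-numbered BRP cells were not searched. Cell F1 stood apart from the other F cells in exonic Opcml (162.7 CPM, next cell 8.85), in exonic Lsamp (17.93 CPM, next cell 0.473) and in the intronic share of all counts (5.311%, next cell 36.3%). F2 had most exonic Ntm (320.8 CPM, next cell 100.8) and F24 most intronic Lsamp (16155 CPM, next cell 7441). Among the high-numbered BRP cells, BRP564 had most exonic Ntm (47.4 CPM, next cell 9.94) and BRP566 most intronic Lsamp (2577 CPM, next cell 1321).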

How the results depend on the processing

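No paired analysis was possible because the codes of the columns carry no replicate number of the labels and no test was made. Values for Opcml, Lsamp, Ntm and Negr1 follow in that order where 4 are given. Ratios of exonic medians between the BRP runs kept their direction under each alternative but were smaller with exonic and intronic counts added, at 9.544, 1.566, 7.749 and 11.77, and with TMM factors were 630.3 for Opcml and 41.58 for Negr1. Ratios of the low-numbered BRP cells to the F cells became 1.501 for Opcml, 1.372 for Ntm and 5.658 for Negr1 with both counts added, 15.57 for Opcml and 17.89 for Ntm with TMM factors, and 16.72 for Ntm without F16, the F cell with fewest exonic counts. Without F1, an alternative chosen after seeing the data, the intronic share in the F cells was 99.9% for Opcml and 100.0% for Lsamp (1 exonic count), and no ratio of the low-numbered BRP cells to the F cells could be had for Ntm (nor for Negr1 without F16, or for Lsamp in any case), since the median of the F cells was 0. The intronic share over all cells was 96.53, 99.17, 70.14 and 64.04% as a median over cells with at least 10 counts, and 90.05, 97.39, 73.79 and 47.7% without the cell with most counts of the gene. Over the 28 cells left out in turn it ran from 90.05 to 93.0%, 97.39 to 98.5%, 68.3 to 74.52% and 47.7 to 55.49%, so single cells moved it beyond its interval, which treats reads as independent. Median intronic levels per 1000000 counts of both tables were 117.5, 151.5, 51.37 and 91.72, which are lower by construction. The median intronic level of Lsamp was 762.7 with TMM factors, 629.5 with DESeq2 size factors and 1475.9 with genes lacking an intron left out of the totals. At least 5 exonic counts of Opcml were found in 67.86% of cells and at least 10 in 64.29%, against 89.29% with any. Thinning each cell to the lowest total lowered the percent of cells with an exonic count. It went from 89.29, 71.43, 82.14 and 85.71% to 72.4, 54.63, 78.02 and 83.49%. These values stayed inside their intervals, which are wide, with lower limits of 71.77% for Opcml and 51.33% for Lsamp. The intervals treat the 28 cells as independent, although the cells count as 1 sample. A value inside its interval can therefore still have moved. Leaving genes of few or very many counts out of the exonic totals moved no median exonic level beyond such an interval. Ntm and Negr1 changed places as first of the 4 per kb of exon when means or sums over the 28 cells replaced medians.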
